A study of Mus musculus with 24 samples.

Results

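The set described here was 9 of the 45616 genes and unnamed transcripts on the array, read by 14 of its 56605 probes: AK034948, 4933409K07Rik, ENSMUST00000177565, Gm3893, Tmem254a, Tmem254c, Entpd4, AK031973 and Coq7. They were chosen by their measured age difference, a limma call of lower at 90 weeks than at 10 weeks in each of 4 tissues (white adipose tissue or WAT, liver, lung and kidney), so their age differences are given as a description, with no test. The arrays were Agilent 1-colour (Cy3) mouse expression arrays, 1 per mouse and tissue, with 3 mice at 10 weeks (young) and 3 mice at 90 weeks (aged) for each of the 4 tissues, 24 arrays in all. All mice were labelled C57BL/6J males, and no treatment or engineered allele was named for any of them. The study's methods name The Jackson Laboratory as the source of its C57BL/6 mice. The sources used here do not say whether the young and aged mice came from the same colony or were shipped together, and no DNA of these mice was measured. Age and origin of the mice therefore cannot be told apart, and whether copy number or substrain differed between the ages was not tested.

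The set joins unlike kinds of transcript. Coq7 encodes the hydroxylase that carries out the next-to-last step of coenzyme Q (ubiquinone) synthesis in mitochondria, and Entpd4 encodes a Golgi and lysosomal enzyme that splits nucleoside diphosphates and triphosphates. Tmem254a and Tmem254c encode nearly identical small transmembrane proteins whose function is not well known. RefSeq lists Gm3893 and 4933409K07Rik as transcribed pseudogenes, and AK034948, AK031973 and ENSMUST00000177565 are known on the array only by a cDNA or transcript identifier. Several of these genes lie in stretches of the mouse genome that are present in more than 1 copy. Inbred mouse colonies kept apart can come to differ in the number of such copies, and an expression array reads RNA level alone.

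The Tmem254 genes show this repeat most plainly. In the RefSeq gene table (GRCm38.p6) the 12 genes from Plac9a to Duxbl3 on chromosome 14 form the same series of 4 kinds of gene, Plac9, Tmem254, Cphx and Duxbl, 3 times in a row. The 3 Tmem254 copies are Tmem254a, Tmem254c and Tmem254b, in that order. Their upstream sequences at the first start listed in the RefSeq table are shown, since they let the copies be compared base by base. The 250 bases before the annotated start of Tmem254a (chr14:25927673-25927922, minus strand) and of Tmem254c (chr14:26067426-26067675, minus strand) were identical, and the window of Tmem254b (chr14:26207026-26207275, minus strand) was the same sequence displaced by 16 bases, with 234 of 234 overlapping bases the same. Capitals mark AGGTAGGGATAGCC, the longest run that occurs 2 times in the window:
Tmem254a and Tmem254c: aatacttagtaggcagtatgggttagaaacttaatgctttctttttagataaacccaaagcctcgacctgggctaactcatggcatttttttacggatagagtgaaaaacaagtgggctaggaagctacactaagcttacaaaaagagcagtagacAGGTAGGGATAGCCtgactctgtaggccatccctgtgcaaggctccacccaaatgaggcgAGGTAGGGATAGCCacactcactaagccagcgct
Tmem254b: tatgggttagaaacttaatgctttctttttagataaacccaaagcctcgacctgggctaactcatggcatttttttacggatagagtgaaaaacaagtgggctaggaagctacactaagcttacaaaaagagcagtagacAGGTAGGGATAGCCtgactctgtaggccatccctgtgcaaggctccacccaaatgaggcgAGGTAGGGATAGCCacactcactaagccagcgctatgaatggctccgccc

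Searched on both strands of all 32851 RefSeq windows of this length, that run was found in 3 windows (0.00913%), those of the 3 Tmem254 copies. TATAAA was in 12.4% of windows and CCAAT in 33.8%, and neither was in a Tmem254 window. GGGCGG was in 32.7% of windows, with 1 match in that of Tmem254b and 0 in the others. At the second start listed for each copy, whole windows of 300 bases were aligned as annotated. Of aligned columns, 92.9% were the same between Tmem254a and Tmem254c and 58.7% between Tmem254c and Tmem254b. These pairs had 0 substitutions, with 22 and 156 gap columns. Tmem254a and Tmem254b had 53.0% the same, with 98 substitutions and 56 gap columns. By this measure, which counts a displaced start as gaps, the first start gave 100%, 89.9% and 89.9% in the same order. Such a match is a description of the letters and not of a binding site. Of the 9 members, 3 (Tmem254a, Tmem254c and Coq7) had a window in the RefSeq table.

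Each array's signal was divided by its own 75th percentile and put on a log2 scale, so a value of 0 is a signal equal to that percentile and a difference of 1 is a 2-fold difference. Between 58.6% and 71.1% of probes were well above background on an array and no spot was saturated. The markers used for liver, lung and kidney were highest in their own tissue (4 of 4 each), and 3 of 4 adipose markers (Adipoq, Plin1 and Fabp4) were highest in WAT, while the mean of Lep was -0.46 in WAT and -0.24 in liver. Blood and immune cell markers moved with age in the same samples. Of 44 tests of such a marker in a tissue, 23 were called higher at 90 weeks and 0 lower (limma, adjusted p under 0.05). The calls higher were 4 of 11 in liver, 3 of 11 in lung, 10 of 11 in kidney and 6 of 11 in WAT. The shares of all entries called higher were 10.5%, 2.72%, 20.6% and 2.01%. All 11 markers measured were well above background on at least 1 array of every group. Their summed signal, in multiples of the 75th percentile, ran from 55.7 to 166 in young and 132 to 1285 in aged liver, from 101 to 355 and 753 to 1763 in lung, from 12.3 to 367 and 92.3 to 168 in kidney, and from 221 to 492 and 399 to 1174 in WAT. The sum adds signals before the log2 step, so bright markers weigh most in it and it need not follow the calls. In aged liver 1285 was replicate 2, with the others at 213 and 132. Adipose and liver markers moved as well. In lung 1 of 4 adipose markers was called lower (Plin1) and 0 of 3 liver markers were called. Adipoq was at 2.76, 2.87 and 1.68 in young and -6.86, -7.54 and -1.18 in aged lung, and Alb at -3.08, -0.53 and -2.82 in young and 6.68, 1.08 and -1.45 in aged lung, where aged replicate 1 stood apart. In WAT 0 of 4 adipose markers and 1 of 3 liver markers (Ttr, lower) were called. In kidney 3 of 4 adipose markers were called higher, with a change of 4.23 for Adipoq, and 1 lower (Lep). There 3 of 3 liver markers, 2 of 2 lung markers and 2 of 4 kidney markers (Slc34a1 and Umod) were called lower. Of the kidney markers 1 (Nphs1) was called higher. In liver Fabp4 was called higher and Lep lower of 2 adipose markers. Without aged lung replicate 1 the members' changes in lung ran from -5.83 to -0.46. The part of these markers in the differences below was not tested. In whole tissue, fewer cells of a type and less RNA per cell cannot be told apart.

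With 1 probe per gene, the brightest, every aged mouse lay below every young mouse for 9 of 9 members in each tissue. Over all genes and transcripts tested, the same was true of 33.1% in liver, 24.2% in lung, 47.6% in kidney and 15% in WAT. In all 4 tissues together it was true of 727 of 25797 (2.82%), and 9 of 25797 (0.0349%), the members, were called lower in all 4. The rule fixed these counts for the members. Among the members, Coq7 was nearest to the threshold, with a largest adjusted p over the tissues of 0.0495 (limma, Benjamini-Hochberg), before Entpd4 at 0.0474 and AK031973 at 0.0453. The rule used these values, so they are no test of the members and show only how near each lay to the threshold. Just outside it stood Lrmda (0.0512), AK084609 (0.0518) and Fam205a2 (0.0548). The median change of the members was -2.39 in liver, -2.08 in lung, -2.55 in kidney and -2.27 in WAT, beside -0.20, -0.08, -0.23 and -0.05 over everything tested. With the members at background in every aged mouse set at their bound (3 in liver, 1 in lung, 2 in kidney and 1 in WAT) the medians were -2.34, -2.08, -2.43 and -2.27.

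**Figure D1:**
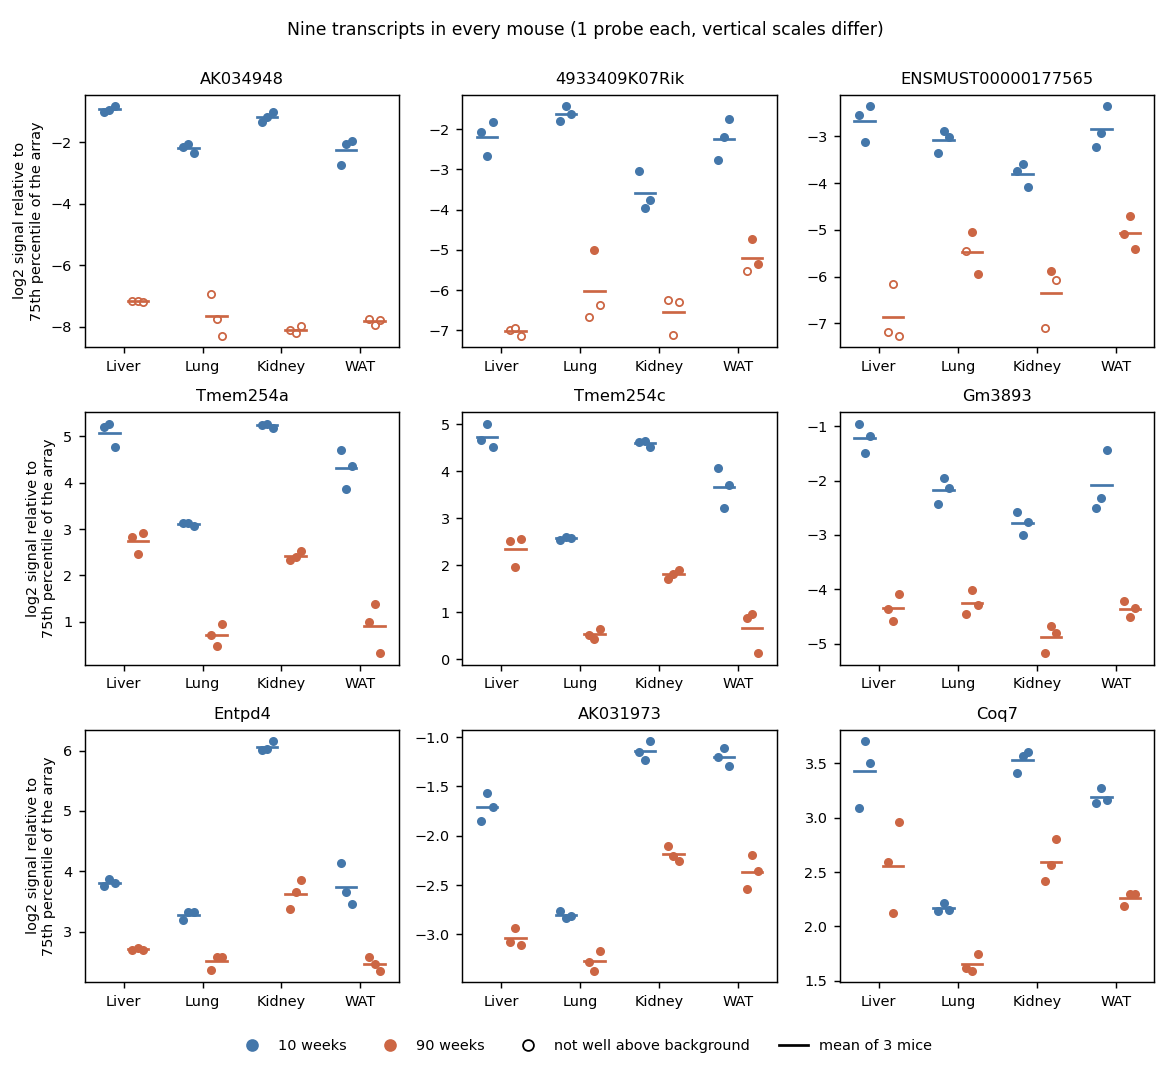
Log2 signal relative to the 75th percentile of the array (vertical axis, a scale of its own in each panel) for 1 probe of each of the 9 transcripts, by tissue, with 1 point per mouse and a line at the mean of 3 mice. Blue points are mice of 10 weeks and red points mice of 90 weeks, and open points are spots not well above background, which for AK034948 were all 12 aged arrays.

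AK034948, a cDNA clone with no gene name here, was present in every young mouse and at background in every aged mouse. In liver the 3 young mice were at -1.0, -0.94 and -0.82 and the aged mice at -7.14, -7.14 and -7.19. In kidney the young mice were at -1.33, -1.17 and -1.01 and the aged mice at -8.10, -8.20 and -7.97. The probe was well above background on all 12 young arrays and on 0 of 12 aged arrays, so the aged level is only bounded. Young lungs were at -2.15, -2.07 and -2.33, against -6.91, -7.75 and -8.28 in aged lungs. Young WAT was at -2.75, -2.05 and -1.94, against -7.74, -7.94 and -7.76 in aged WAT. The signal was at least 16.6-fold lower in aged liver, at least 9.66-fold lower in lung, at least 27.5-fold lower in kidney and at least 10.5-fold lower in WAT. These bounds set the aged level at the dimmest signal that counts as well above background. They hold for the deposited background correction. With another background correction, given at the end, the falls were smaller than these bounds.

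The pseudogene transcript 4933409K07Rik followed the same pattern with some signal left in the aged mice. In liver it was at -2.07, -2.65 and -1.82 in young and -6.99, -6.94 and -7.13 in aged mice, at least 6.91-fold lower. In kidney it was at -3.04, -3.96 and -3.75 in young and -6.24, -7.11 and -6.31 in aged mice, at least 5.17-fold lower. No aged liver or kidney was well above background. In lung it was at -1.80, -1.42 and -1.63 in young and -6.66, -5.00 and -6.38 in aged mice, with 1 of 3 aged lungs well above background. In WAT it was at -2.76, -2.18 and -1.75 in young and -5.54, -4.73 and -5.36 in aged mice, with 2 of 3 aged samples well above background. The measured means differed by -4.40 ± 0.53 (SE, n = 3 against 3) in lung and -2.98 ± 0.38 in WAT, values that include the aged mice at background, and the groups were apart by 3.20 and 1.98 at their nearest mice.

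ENSMUST00000177565 is known here by its transcript identifier alone. In liver it was at -2.53, -3.12 and -2.35 in young and -7.18, -6.15 and -7.26 in aged mice, at least 4.92-fold lower, with no aged liver well above background. In the other tissues some aged mice retained signal: 2 of 3 in lung, 1 of 3 in kidney and 3 of 3 in WAT were well above background. The measured means differed by -2.39 ± 0.30 in lung, -2.55 ± 0.41 in kidney and -2.23 ± 0.33 in WAT (SE, n = 3 against 3), of which those in lung and kidney include aged mice at background. The nearest young and aged mice were 1.46 apart in WAT, the closest of the 4 tissues.

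Gm3893, a transcribed pseudogene of the multiplied stretch of chromosome 4 that also carries Ccl21, Ccl27 and Il11ra copies, was lower in aged mice but stayed well above background in all of them. In liver it was at -0.95, -1.50 and -1.19 in young and -4.37, -4.58 and -4.10 in aged mice, a change of -3.14 ± 0.21 or 8.80-fold lower. In lung it was at -2.43, -1.96 and -2.14 in young and -4.46, -4.01 and -4.29 in aged mice, or 4.23-fold lower. In kidney the young mice were at -2.58, -2.99 and -2.76 and the aged mice at -5.18, -4.68 and -4.81. Apart from liver, its folds were close to each other, 4.32 in kidney and 4.83 in WAT. In WAT the young mice were at -2.51, -2.32 and -1.44 and the aged mice at -4.23, -4.51 and -4.35. The aged mice of the 4 tissues thus lay between -5.18 and -4.01 while the young ones spread from -2.99 to -0.95.

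Tmem254a and Tmem254c were bright in every mouse, and 3 probes read them. The probe A_51_P222453 of Tmem254a gave 5.19, 5.26 and 4.77 in young and 2.82, 2.47 and 2.91 in aged liver, 5.06-fold lower. In kidney it gave 5.25, 5.27 and 5.18 in young and 2.34, 2.40 and 2.53 in aged mice, 7.02-fold lower. In lung it gave 3.12, 3.14 and 3.07 in young and 0.70, 0.47 and 0.95 in aged mice, 5.27-fold lower. The drop was deepest in WAT, where the young mice were at 4.71, 3.86 and 4.35 and the aged mice at 1.00, 1.38 and 0.32, 10.6-fold lower. The other Tmem254a probe, A_55_P2110290, changed by -2.75 ± 0.15 in liver, -2.38 ± 0.10 in lung, -3.23 ± 0.08 in kidney and -3.43 ± 0.38 in WAT. The probe of Tmem254c, A_55_P1967553, changed by -2.39 ± 0.24, -2.04 ± 0.06, -2.79 ± 0.07 and -3.00 ± 0.36 in the same order (SE, n = 3 against 3). All 3 probes kept the groups apart by at least 1.86 in every tissue. The accessions of the first pair belong to 1 gene in RefSeq, and since the copies are so alike the 3 probes may read each other's transcripts. They are not 3 independent readings.

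Entpd4 was read by 3 probes with the same accession and changed most in kidney. Its brightest probe, A_55_P1992505, gave 6.00, 6.03 and 6.16 in young and 3.37, 3.66 and 3.86 in aged kidney, 5.41-fold lower. In liver it gave 3.75, 3.87 and 3.80 in young and 2.70, 2.73 and 2.70 in aged mice, 2.14-fold lower. In WAT it gave 4.13, 3.65 and 3.45 in young and 2.58, 2.47 and 2.35 in aged mice, 2.42-fold lower. The gap was narrowest in lung, where 3.19, 3.33 and 3.33 in young stood against 2.36, 2.58 and 2.59 in aged mice, 1.71-fold lower. The probe A_51_P302222 changed by -1.39 ± 0.07 in liver, -0.81 ± 0.05 in lung, -2.61 ± 0.19 in kidney and -1.32 ± 0.22 in WAT. The dim probe A_52_P582907 changed by -1.25 ± 0.17, -0.43 ± 0.18, -2.45 ± 0.23 and -0.94 ± 0.10 in the same order. In lung the groups overlapped on this probe, with the aged mice at -2.44, -2.21 and -2.67 and 1 young mouse at -2.26.

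AK031973, a cDNA with no gene name here, was lower by a small factor in each tissue. It was at -1.85, -1.57 and -1.71 in young and -3.08, -2.93 and -3.10 in aged liver, 2.52-fold lower. In lung it was at -2.77, -2.83 and -2.82 in young and -3.28, -3.37 and -3.17 in aged mice, 1.38-fold lower. In kidney and WAT it was 2.06-fold and 2.24-fold lower, with changes of -1.04 ± 0.07 and -1.16 ± 0.11. No mouse of one age reached the other in any tissue, and the nearest mice were 0.34 apart in lung.

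Coq7 was lower by less than 2-fold in each tissue on its brightest probe. On A_51_P161691 it was at 3.09, 3.70 and 3.50 in young and 2.59, 2.12 and 2.96 in aged liver, with the nearest mice 0.13 apart. In kidney it was at 3.41, 3.57 and 3.60 in young and 2.42, 2.57 and 2.81 in aged mice, and in WAT at 3.14, 3.27 and 3.17 against 2.18, 2.30 and 2.29. In lung it was at 2.14, 2.22 and 2.15 in young and 1.62, 1.59 and 1.75 in aged mice. They were folds of 1.83 in liver, 1.43 in lung, 1.91 in kidney and 1.91 in WAT. The probe A_51_P161682, of the same accession, changed by -0.91 ± 0.33, -0.55 ± 0.11, -0.94 ± 0.10 and -0.92 ± 0.11 in liver, lung, kidney and WAT. The probe A_66_P137134, assigned to the other RefSeq transcript NM_001304758, showed no drop in lung, where the young mice were at -0.81, -0.60 and -0.61 and the aged mice at -0.62, -0.62 and -0.80. In kidney this probe changed by -0.34 ± 0.04, and in liver and WAT by -1.02 ± 0.14 and -1.15 ± 0.38. On 2 of the 3 Coq7 probes every aged lung was below every young lung.

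**Figure D2:**
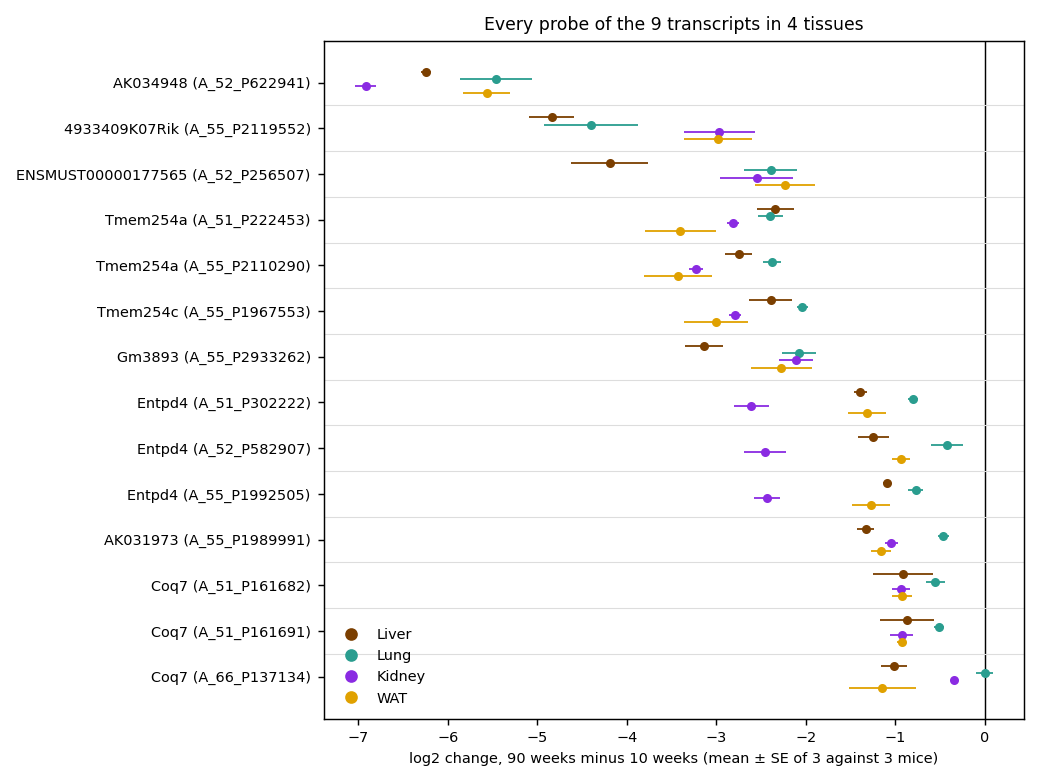
Log2 change from 10 to 90 weeks (horizontal axis, mean ± SE of 3 against 3 mice) for each of the 14 probes of the 9 transcripts, with 1 point per tissue. Every aged mouse lay below every young mouse on 14 of 14 probes in liver, kidney and WAT and on 12 of 14 in lung, where the exceptions were A_66_P137134 of Coq7 and A_52_P582907 of Entpd4.

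The changes of a member differed between tissues by a median of 1.06 (range over the 4 tissues), against 0.79 over everything tested. The members were chosen by their change and some lay at background in aged mice, so these 2 medians were not compared by a test. By the rule set for likeness, groups that do not overlap in any tissue and the largest change nearest to 0, the 5 entries most like the members were Nr1d1, Cyp4a12b, ENSMUST00000167363, Flacc1 and AK035904. Nr1d1, the clock repressor REV-ERB alpha, changed by -2.42 in liver, -2.64 in lung, -1.32 in kidney and -1.65 in WAT. Cyp4a12b, a male-biased fatty acid hydroxylase of liver and kidney, changed by -6.17, -2.13, -1.09 and -1.88. For ENSMUST00000167363, Flacc1 and AK035904 the change nearest to 0 was -1.07, -1.0 and -0.99. None of the 5 was called in all 4 tissues.

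The levels between tissues of young mice were not used to choose the members and could be tested on the 12 young arrays, for 6 pairs of tissues (limma, Benjamini-Hochberg over 33274 entries in each pair). Each tissue may have been on a slide of its own, and then tissue and slide cannot be told apart. Of the 9 members, 7 differed between liver and lung, 5 between liver and kidney, 5 between liver and WAT, 8 between lung and kidney, 5 between lung and WAT and 6 between kidney and WAT. The shares of all entries called were 72.8%, 56%, 67%, 63.5%, 52.9% and 55.8%. Entpd4 had the plainest order. Young kidney was at 6.06 ± 0.08 (SD, n = 3), above liver at 3.81 ± 0.06, WAT at 3.74 ± 0.35 and lung at 3.28 ± 0.08, and kidney exceeded liver by 2.26 ± 0.16 (SE, adjusted p = 1.05e-06, limma). Liver and WAT differed by 0.06 ± 0.16 (adjusted p = 0.746, limma).

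Tmem254a and Tmem254c ran in parallel over the young tissues. Tmem254a was at 5.23 ± 0.05 in kidney, 5.07 ± 0.27 in liver, 4.31 ± 0.43 in WAT and 3.11 ± 0.04 in lung (SD, n = 3). Kidney and liver, its neighbours in that order, differed by 0.16 with an SE of 0.20 (adjusted p = 0.523, limma), and lung was lower than WAT by 1.20 ± 0.20 (adjusted p = 0.000727, limma). Coq7 was at 3.53 ± 0.10 in kidney, 3.43 ± 0.31 in liver, 3.19 ± 0.07 in WAT and 2.17 ± 0.04 in lung, and lung stood below each of the other tissues (adjusted p of 2.22e-05 to 0.000276, limma). AK034948 was higher in liver (-0.92 ± 0.09) and kidney (-1.17 ± 0.16) than in lung (-2.18 ± 0.13) and WAT (-2.25 ± 0.44). AK031973 was at -1.14 ± 0.10 in kidney and -1.20 ± 0.09 in WAT, then -1.71 ± 0.14 in liver and -2.80 ± 0.03 in lung.

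Lung was not lowest for every member. 4933409K07Rik was at -1.62 ± 0.19 in lung, -2.18 ± 0.43 in liver, -2.23 ± 0.50 in WAT and -3.59 ± 0.48 in kidney, and kidney was below lung by 1.97 ± 0.32 (SE, adjusted p = 0.000344, limma). ENSMUST00000177565 was also lowest in kidney, at -3.80 ± 0.26, against -2.67 ± 0.40 in liver, -2.83 ± 0.45 in WAT and -3.09 ± 0.25 in lung. Gm3893 was highest in liver (-1.21 ± 0.27), and WAT (-2.09 ± 0.57), lung (-2.18 ± 0.24) and kidney (-2.78 ± 0.21) did not differ from each other at the threshold (adjusted p of 0.0509 to 0.800, limma).

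A stretch of chromosome that is lost or gained carries its neighbours with it, so the genes next to the members are described too. Their RNA level is not a measure of copy number, and the part of copy number in it was not tested. For each of the 5 members with a place on an assembled chromosome, the 5 measured genes on each side in RefSeq order were taken, 41 genes in all. Over the 4 tissues 155 tests of these genes gave 40 called lower and 9 called higher (limma, adjusted p under 0.05 over all entries). By tissue, 8 of 37 were lower in liver, where 17% of all entries were, 3 of 40 in lung (2.89%), 25 of 40 in kidney (42.6%) and 4 of 38 in WAT (0.579%). The genes called higher were 2 in liver, 1 in lung, 6 in kidney and 0 in WAT, beside 10.5%, 2.72%, 20.6% and 2.01% of all entries. These counts rested on single arrays in part. Of the 3 calls in lung, 0 were kept without young replicate 1 and 1 without young replicate 2 or 3. Of the 4 in WAT, 1 was kept without any array other than young replicate 1, and of the 8 in liver 2 were kept without young replicate 1 or 2. In 4 of the 40 calls lower (Gm16867 in liver and kidney, Duxbl2 in lung and WAT) no aged array was well above background, so these entered the test through the young mice alone and are given as values.

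Around Tmem254a and Tmem254c, 3 measured genes belonged to the repeated series (Plac9a, Cphx1 and Duxbl2). Plac9a, a small secreted protein gene, was at 5.96, 6.05 and 6.10 in young and 3.73, 3.53 and 3.32 in aged lung, a change of -2.51 ± 0.13 (adjusted p = 0.00541, limma). In liver it changed by -0.78 ± 0.17 and in kidney by -0.53 ± 0.18 (adjusted p = 0.0204 and 0.0432, limma), and in WAT by -1.85 ± 0.55, which was not called (adjusted p = 0.151, limma). Duxbl2, a double homeobox gene, was well above background in young lung and young WAT and in no aged mouse of either. In WAT it was at -3.71, -4.00 and -3.66 in young and -6.17, -6.82 and -6.27 in aged mice, at least 3.61-fold lower. In lung it was at least 1.64-fold lower. Both bounds hold for the deposited background correction. Over 9 other settings the change of Duxbl2 ran from -2.63 to -0.79 in WAT and from -2.81 to -0.75 in lung. It was not tested in liver or kidney. Cphx1, a homeobox gene of the early embryo, was at -1.72, -1.66 and -1.73 in young and -3.46, -4.37 and -3.74 in aged liver, a change of -2.15 ± 0.25 (adjusted p = 0.00306, limma). It changed by -1.61 ± 0.10 in kidney (adjusted p = 0.000106, limma) and by 0.04 ± 0.30 in lung (adjusted p = 0.951, limma).

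The 8 neighbours outside the repeated series, among them Anxa11 and Slmap, ranged from -0.69 to 0.13 in liver, from -0.27 to 0.63 in lung and from -0.32 to 0.91 in WAT. Of these 1 was called in liver and 0 in lung or WAT. In kidney 7 of 8 were called lower and 1 higher, with changes of -1.22 to 0.87. The difference between the genes inside and outside the series was not tested. Each gene has its own probe and each is read in the same mice, so they are not independent. The Plac9a call was lost without young lung replicate 1 (adjusted p = 0.0594, limma), without any 1 of the 3 young livers (up to 0.0759) and without any 1 of 4 kidneys (young replicates 1, 2 and 3 and aged replicate 2, up to 0.116). The calls of Cphx1 in liver and kidney stood each time. Plac9a was also at 5.00, 6.51 and 6.35 in young WAT, and Plin1 fell between young and aged lung in the same mice; the part of adipose markers in its lung value was not tested.

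**Figure D3:**
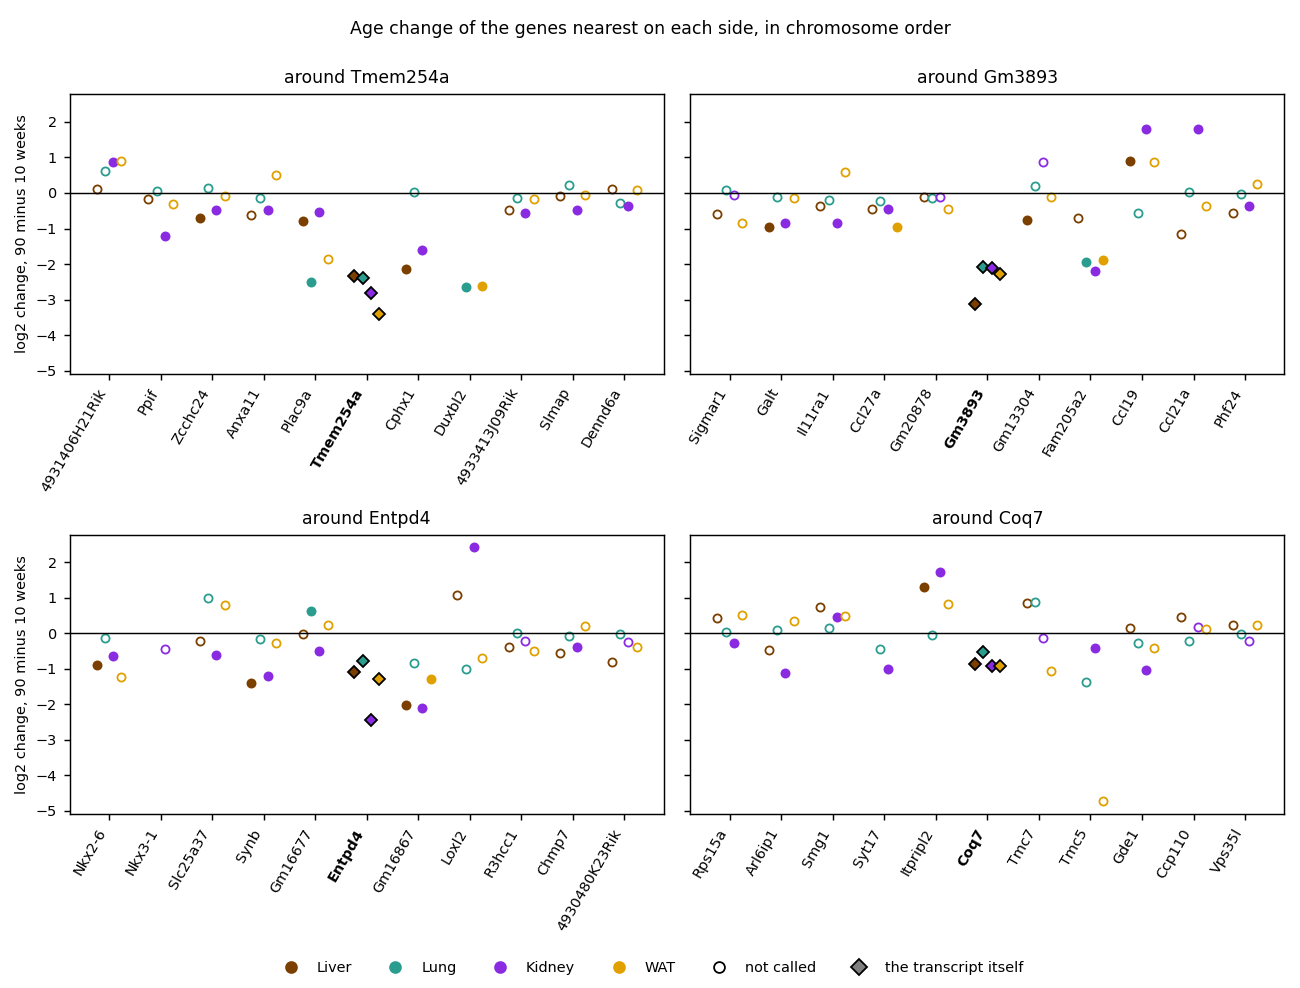
Log2 change from 10 to 90 weeks (vertical axis) of the 5 measured genes on each side of Tmem254a, Gm3893, Entpd4 and Coq7, in chromosome order (horizontal axis, not to scale), with colours for the tissues. Filled points were called by limma at an adjusted p under 0.05, open points were not, and diamonds are the named transcript. Plac9a, Cphx1 and Duxbl2 beside Tmem254a, Gm16867 beside Entpd4 and Fam205a2 near Gm3893 reach changes of -1.9 or lower in at least 1 tissue, as does Tmc5 beside Coq7 in WAT, at -4.73 and not called.

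Gm16867, the next measured gene after Entpd4 on chromosome 14, was lower as well. It was at -2.60, -3.07 and -3.12 in young and -4.88, -4.90 and -5.07 in aged liver, at least 4.02-fold lower. In kidney it was at -3.67, -3.66 and -4.20 in young and -5.96, -6.12 and -5.74 in aged mice, at least 4.20-fold lower. Both bounds hold for the deposited background correction. Over 9 other settings Gm16867 changed by -2.06 to -1.19 in liver and by -2.21 to -1.28 in kidney. It changed by -1.29 ± 0.21 in WAT (adjusted p = 0.0390, limma) and by -0.83 ± 0.19 in lung (adjusted p = 0.0663, limma). The WAT call was lost without any 1 of 5 WAT arrays (all but young replicate 1, adjusted p up to 0.148, limma) and under 7 of 9 other settings. On the other side of Entpd4, Gm16677 changed by -0.01 in liver, 0.62 in lung, -0.50 in kidney and 0.23 in WAT. Entpd4b, the copy of Entpd4 in RefSeq, had no probe under that name.

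Near Gm3893 the Fam205a2 gene, one of 4 Fam205a copies in RefSeq, had probes that went different ways. The probe A_55_P2033480 was at -1.37, -1.95 and -1.32 in young and -6.40, -7.08 and -6.95 in aged liver, at least 10.7-fold lower. It was called lower in all 4 tissues when each probe was tested by itself (0.0395% of probes were, and 16% in liver, 2.79% in lung, 42.3% in kidney and 0.582% in WAT), with changes of -1.94 ± 0.29 in lung, -2.21 ± 0.12 in kidney and -1.90 ± 0.31 in WAT (adjusted p of 6.93e-05 to 0.0399, limma). In liver it entered that test through the young mice alone. A_66_P106417 changed by -0.70 in liver, -1.45 in lung, -1.15 in kidney and -1.05 in WAT. A_55_P2119548 changed by 1.74 ± 0.24 in kidney (adjusted p = 0.00125, limma) and by -0.86 in lung and 0.82 in WAT. In the fit with 1 probe per gene, the brightest probe in liver was A_66_P106417, which left the gene just outside the members. The gene's calls were lost in lung without any 1 of 4 arrays (the 3 young lungs and aged replicate 1, adjusted p up to 0.105) and in WAT without any 1 of 5 (all but young replicate 1, up to 0.134, limma).

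The other genes of the multiplied stretch of chromosome 4 and copies of the members were listed as 21 genes. Of these, 5 had a measured probe under their name, and Entpd4b and Tmem254b did not. All 5 are also neighbours of Gm3893, so their calls were already counted among the neighbours above. In 20 tests the 5 genes gave 4 calls lower, 1 in liver, 2 in kidney and 1 in WAT. They gave 3 higher, 1 in liver and 2 in kidney. The shares of all entries are those given above for the neighbours. Gm13304 was lower in liver (-0.75), Il11ra1, an interleukin-11 receptor gene, in kidney (-0.85), and Ccl27a, a skin-homing chemokine, in kidney (-0.46) and WAT (-0.96). The Ccl27a call in WAT was lost without any 1 of the 6 arrays (adjusted p of 0.0769 to 0.151, limma), and the Gm13304 call without any 1 of 5 (all but young replicate 3, up to 0.101). Ccl19 was higher in liver (0.89) and kidney (1.81) and Ccl21a in kidney (1.79), both chemokines of lymphoid tissue. The Ccl21a call was lost without young kidney replicate 1 or 2 or aged replicate 2 (adjusted p up to 0.0779, limma), and that of Ccl19 in liver without young replicate 1 (0.0563). Gm20878, next to Gm3893, changed by -0.10 in liver, -0.15 in lung, -0.10 in kidney and -0.45 in WAT and was not called. Of the 10 neighbours of Coq7, 0 were called lower in liver, lung or WAT and 5 in kidney, while 1 was called higher in liver and 2 in kidney.

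Of 5 genes known to differ in sequence, copy number or expression between C57BL/6 colonies, 4 were measured. In 16 tests 1 was called lower and 2 higher with 1 probe per gene. All of these calls were in kidney, 1 of 4 lower and 2 of 4 higher, beside 42.6% and 20.6% of all entries there. Wdfy1, which encodes an adaptor of endosomal Toll-like receptor signalling, moved the same way in every tissue. Its probe A_51_P390314 was at -0.56, -0.43 and -0.31 in young and 1.45, 1.75 and 1.48 in aged liver, and at -0.98, -0.69 and -0.73 in young and 1.55, 1.87 and 1.73 in aged lung. It was at -0.10, -0.32 and -0.40 in young and 1.60, 1.64 and 1.84 in aged kidney, and at -1.46, -1.21 and -0.90 in young and 1.42, 1.26 and 1.54 in aged WAT. Every aged mouse lay above every young mouse, with changes of 1.99 ± 0.17, 2.52 ± 0.13, 1.96 ± 0.12 and 2.59 ± 0.20 (adjusted p of 8.78e-05 to 0.00529, limma on each probe by itself, by which 0.377% of probes were called higher in all 4 tissues, and 10.2%, 2.7%, 20.5% and 1.97% in liver, lung, kidney and WAT). The probe A_52_P328825 of the same accession, NM_001111279, rose by 2.14 in liver, 2.39 in lung, 1.80 in kidney and 2.47 in WAT and was called in each.

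The third Wdfy1 probe, A_55_P2070686, carries the accession NM_027057 and is the brightest. It rose by 2.34 ± 0.11 in kidney (adjusted p = 5.27e-05, limma), and changed by 1.03 ± 0.52 in liver, 0.51 ± 0.36 in lung and 0.23 ± 0.37 in WAT, none of them called (adjusted p of 0.17 to 0.767, limma). With the brightest probe taken for the gene, Wdfy1 was called in kidney alone.

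**Figure D4:**
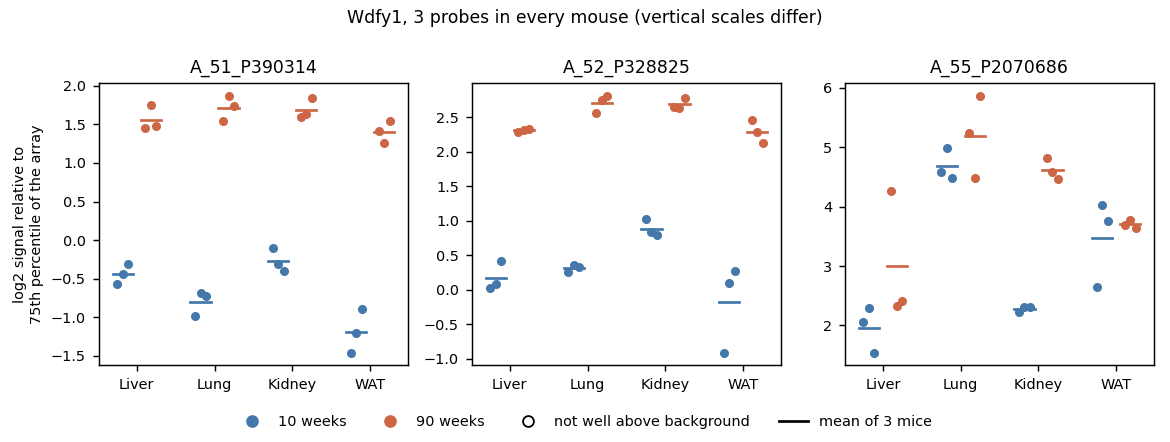
Log2 signal relative to the 75th percentile of the array (vertical axis, a scale of its own in each panel) of the 3 Wdfy1 probes by tissue, with 1 point per mouse and a line at the mean of 3. On A_51_P390314 and A_52_P328825 every aged mouse lies above every young mouse in all 4 tissues, and on A_55_P2070686 this holds in liver and kidney but not in lung or WAT.

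The other substrain genes did not follow 1 direction. Ide, the insulin-degrading enzyme, changed by -0.56 ± 0.10 in kidney (adjusted p = 0.00405, limma) and by -0.47 in liver, -0.09 in lung and -0.03 in WAT, none of which was called. Fgfbp3, the gene that shares a copied stretch with Ide in some colonies, was called in no tissue, with changes of -0.57 to -0.13. Mmrn1, which encodes a platelet and endothelial cell protein, was called higher in kidney (1.71), a call lost without any 1 of 3 kidneys (young replicate 2 and aged replicates 1 and 2, adjusted p up to 0.0744, limma). Nnt was not analysed here.

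The pathway of Coq7 was described by 12 other coenzyme Q genes, all measured in the 4 tissues. In kidney 11 of 12 were called lower, where 42.6% of all entries were, and in liver 6 of 12, where 17% were, and 0 were called in lung or WAT, so 17 of 48 tests were lower and 0 higher. The median change of the list was -0.88 in kidney, -0.60 in liver, -0.25 in lung and -0.15 in WAT, beside -0.23, -0.20, -0.08 and -0.05 over all entries. Coq8a, an atypical kinase that stabilises the synthesis complex, changed by -1.67 ± 0.15 in kidney and -1.87 ± 0.45 in liver (adjusted p = 0.000367 and 0.0265, limma). Coq9, the lipid-binding partner of COQ7, changed by -1.55 ± 0.17 in kidney and -0.82 ± 0.21 in liver (adjusted p = 0.000648 and 0.0303, limma). Coq3, a methyltransferase, changed by -1.15 ± 0.14 in kidney and -1.37 ± 0.22 in liver (adjusted p = 0.000977 and 0.00861, limma). Coq10b was the gene not called in kidney, with a change of -0.54. In liver the calls of Coq5, Coq8a, Coq9 and Pdss2 were each lost without any 1 of 4 livers (young and aged replicates 1 and 2) and that of Coq4 without young replicate 2 (adjusted p up to 0.104, limma), and that of Coq3 stood.

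**Figure D5:**
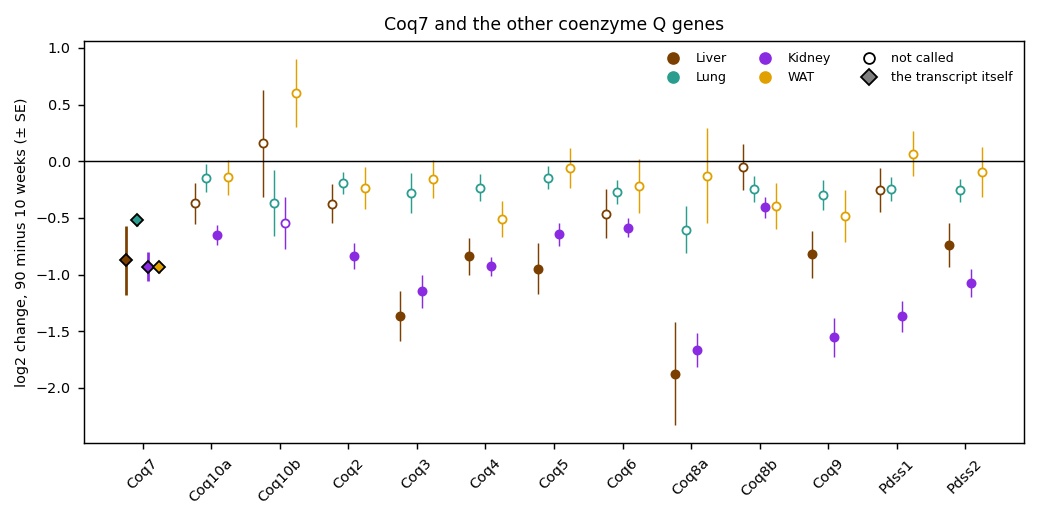
Log2 change from 10 to 90 weeks (vertical axis, ± SE) of Coq7 (diamonds) and of 12 other coenzyme Q genes (circles) in the 4 tissues, from 3 against 3 mice. Filled circles were called by limma at an adjusted p under 0.05: 11 in kidney, 6 in liver and 0 in lung and WAT.

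The ENTPD family of Entpd4, enzymes that hydrolyse extracellular or luminal nucleotides, had 7 other genes measured in at least 1 tissue, with 3 calls lower and 3 higher in 22 tests. The calls lower were 3 of 6 in kidney (42.6% of all entries), and those higher 2 of 6 in kidney (20.6%) and 1 of 5 in liver (10.5%). Entpd1, the CD39 ectonucleotidase of immune and endothelial cells, was higher by 1.54 ± 0.11 in kidney and 1.51 ± 0.26 in liver (adjusted p = 0.000192 and 0.0098, limma). Entpd2 was higher in kidney (0.69). Entpd5, which acts in the endoplasmic reticulum, was lower by 1.63 in kidney, together with Entpd8 (-1.10) and Entpd6 (-0.38). No ENTPD gene was called in lung or WAT.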

How the data were processed

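Total RNA of liver, lung, kidney and WAT from 3 mice per age was labelled with Cy3 and read on 24 arrays, and the authors deposited the intensity of every spot as background-corrected signals from Agilent Feature Extraction 11.0.1.1, not normalised between arrays. The design on the files is a mouse array annotated on mm9. No mouse name or pairing across ages was given, and arrays of different tissues may come from the same mice.

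From there, control spots and outlier spots were left out, signals of a probe were averaged, and log2 intensity minus the array's 75th percentile was used. Of 56605 probes, 32994 were named by accession through a RefSeq table (GRCm38.p6), and the others kept the array's identifier. The table served for names, gene order and promoter windows alone. A probe entered a tissue's fit if 3 or more of the 6 arrays gave it well above background, and the brightest such probe stood for its gene. Ages were compared within a tissue with limma 3.58.1 (R 4.3.3), Benjamini-Hochberg adjusted over all entries and called under 0.05. The SE of a member's change comes from its own 3 against 3 mice, and that of a tested gene from limma. The "at least" folds take the higher of the aged signal and the dimmest well above background signal of each array. They hold for the deposited background correction alone. Young tissues were compared in 1 limma fit over 12 arrays. The code was tested on simulated data. The number of arrays limits the precision, and p-values measure the spread between 3 mice.

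The members, the neighbour, copy, substrain, coenzyme Q and ENTPD lists and the rules for naming genes were chosen with earlier results of these data known. Alternatives were normexp background correction (offset 16), quantile normalization, spike-in scaling, median centring, all probes without a filter, averaged probes per gene, 1 fit over 24 arrays, the methods' Student test, a replicate block and each array left out. Testing each probe by itself was added after seeing the data. A further substrain gene is not reported here.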

Additional observations from a re-analysis of the deposited data

Results flagged for a closer look

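Of the 64 measured genes of the neighbour, copy, substrain, coenzyme Q and ENTPD lists, 6 had aged mice all lower than the young mice in 1 tissue and all higher in another. Over all entries, aged mice were all lower for 33.1%, 24.2%, 47.6% and 15% in liver, lung, kidney and WAT. They were all higher for 16.8%, 11.6%, 23.1% and 13.7%. The share of all entries with both was not counted. The difference between the tissues was not tested for any of the 6 genes. Entpd8 changed by 1.43 in lung, -0.47 in liver and -1.10 in kidney, and Entpd2 by -0.97 in lung and 0.69 in kidney. Loxl2, a lysyl oxidase-like gene near Entpd4, changed by 2.42 in kidney and 1.07 in liver and by -1.0 in lung. Slc25a37, a mitochondrial iron importer near Entpd4, changed by 0.99 in lung, 0.81 in WAT and -0.60 in kidney, and Gm16677 by 0.62 in lung and -0.50 in kidney. Arl6ip1, near Coq7, changed by -1.13 in kidney and 0.35 in WAT.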

How the results depend on the processing

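The 36 changes of the members were below 0 under each of 7 other settings, from -7.03 to -0.34. AK034948 moved most, with normexp background correction, to -3.49 in liver, -2.85 in lung, -3.85 in kidney and -2.46 in WAT. Under spike-in scaling the aged mice lay below the young ones for 8 of 9 members in liver. With 1 array left out the changes ran from -7.00 to -0.42, with a sign that the choice of members fixes. The number of entries lower in all 4 tissues, 9 here, was 26 (8 members among them) in 1 fit over 24 arrays. Under the normalization, filter and probe settings it was between 6 and 11, with 6 to 8 members among them. It was 0 under the methods' Student test, with 294 at an unadjusted p under 0.05, against 292 by limma. With 1 array left out it ran from 0 to 10: 0, 2 and 4 without young lung replicates 1, 2 and 3, 3 and 4 without young WAT replicates 2 and 3, and 3 each without aged WAT replicates 1 and 3. The 97 entries higher in all 4 tissues became 29 without the filter on dim probes, 260 in 1 fit over 24 arrays and 0 under the Student test (383 unadjusted, against 625 by limma), and ran from 0 to 231 with 1 array left out: 0, 3 and 27 without young lung replicates 1, 2 and 3, 231 and 63 without aged lung replicates 2 and 3, 32 and 34 without young WAT replicates 2 and 3, and 35, 50 and 29 without aged WAT replicates 1, 2 and 3.

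Over the 4 tissues 19208 calls were lower and 10841 higher. Spike-in scaling, which shifted the median of all entries by 0.35 in kidney, 0.16 in liver and -0.16 in lung, left 7552 lower, and leaving out the filter gave 32395. The Student test gave 7185 higher. Under spike-in scaling the neighbours called lower went from 40 to 19, the coenzyme Q and ENTPD genes from 20 to 11, the copy family from 4 to 1 and the substrain genes from 1 to 0. The copy family gave 2 lower with quantile normalization, with 24 arrays and with the Student test. The substrain genes gave 2 lower in place of 1 with averaged probes, without the filter and with 24 arrays, and 5 higher in place of 2 with averaged probes, and 1 with 24 arrays and with the Student test. With 1 array left out they gave 1 lower each time and 1 to 2 higher (1 without young kidney replicate 2 or aged kidney replicate 1 or 2), and the copy family 3 to 4 lower and 2 to 4 higher. The Student test called 3 members between young liver and WAT in place of 5. In kidney the change of Rps15a, near Coq7, turned from -0.27 to 0.25 with quantile normalization, 0.085 with spike-in scaling and 0.014 on A_55_P1960775. That of Arf4 turned to 0.029 with spike-in scaling. Fam205a2 turned to 1.74 in kidney and 0.82 in WAT on A_55_P2119548. The cause was not tested.

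Replicate numbers name different mice at the 2 ages, and same-numbered mice deviated from their group means with correlations of -0.17 to 0.18, so the numbers were not taken to pair them. With the replicate number as a block the neighbours called lower were 25, the copy family 2, and the entries lower and higher in all 4 tissues 0 and 0 (187 and 655 at an unadjusted p under 0.05 by limma).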
